A study of Mus musculus with 11 samples.

Results

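Small leucine-rich proteoglycans (SLRPs) are secreted proteins built from leucine-rich repeats, most of which carry glycosaminoglycan chains. They bind collagen fibrils, set fibril width and spacing, and hold growth factors in the matrix, and they are classical products of connective tissue cells. In the cochlea the epithelium itself also makes matrix, because the cells of Kölliker's organ (KO) and the interdental cells beside it secrete the collagens and glycoproteins of the tectorial membrane. The 6 genes followed here, Epyc, Dcn, Lum, Bgn, Fmod and Ogn, were chosen by symbol among 24898 genes of the series. Epyc, Dcn, Lum, Bgn and Ogn had a row at every age, whereas Fmod had rows in 3 of 4 tables and is not analysed here at P7.

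Single cells were taken from the floor of the cochlear duct of the inner ear of CD1 mice. All animals were wild type and untreated, and the groups were ages: E14 (2 libraries), E16 (3), P1 (4) and P7 (2). Each age had its own libraries, so that age and collection cannot be told apart. Each of the 11 droplet libraries pooled cochleae of several animals, so that a library, not an animal, is the replicate. The p-values measure the spread between pools, part of which may be technical. In comparisons within E14 or within P7 they lean on the spread shared across genes. The stroma, roof and lateral wall were dissected away before dissociation. Some roof may have stayed: the authors propose that a small P1 cluster with strong Oc90 is likely made of roof cells. Libraries held 1247 to 5598 cells and 3828399 to 23523802 unique molecular identifiers (UMIs), with a median of 2478 to 5647.5 UMIs per cell. Libraries of the same age shared 9 to 84 cell barcodes. Levels are UMIs of a gene per 1000000 UMIs (CPM), averaged over the cells of a library, and differences are in log2(CPM + 10) from limma with Benjamini-Hochberg adjustment over all genes tested at a threshold of 0.05.

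Cells were sorted into 8 groups by gates of marker genes that hold none of the 6 SLRPs: hair cells (HCs), supporting or prosensory cells of the organ of Corti (SCs), lateral floor cells (Hensen's, Claudius and outer sulcus cells and their precursors), interdental cells, medial KO cells, cells with Oc90 and its companion genes, glia and mesenchyme. In each gate, marker genes that the gate did not use were checked. The lateral floor gate had 3 of 4 check genes higher at E14, 2 of them over 2-fold, and 4 of 4 higher at E16, P1 and P7. The interdental gate had 4 of 4 higher up to P1 and 3 of 4 at P7. At P7 all 4 glial and all 5 mesenchymal check genes were higher in their gates. All 4 check genes of HCs were higher in the HC gate at every age, as were 5 of 5 SC genes at E14, E16 and P1 and 4 of 5 at P7, where 2 were over 2-fold and Prss23 was lower (362 against 991 CPM). For the medial KO gate all 4 check genes were higher at E14, E16 and P1, but 1 of 4 by more than 2-fold. At P7 the medial KO gate had 2 of 4 check genes higher and 0 over 2-fold, and of its 10 gate genes Calb1 and Crabp1 were lower in the gate than in the other cells. The summed level of those gate genes at P7 was 2387 to 2663 CPM in the gate but 3309 to 4999 CPM in HCs. At P7 the markers thus go against the name in part, and medial KO is there the name of the gate only. The Oc90 gate had 1 to 2 of 3 check genes higher and is likewise called by its gate genes. Medial KO cells numbered 818, 2801, 7697 and 642 over the 4 ages, and SCs 33, 353, 883 and 169. Between 19.1% (P1) and 62.2% (E14) of cells passed no gate. Mesenchymal cells numbered 1, 5 and 0 at E14, E16 and P1 but 131 at P7, where 155 glial cells also appeared.

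Epyc, Lum and Dcn lie side by side on chromosome 10. In the GENCODE vM21 annotation of GRCm38, Dcn spans chr10:97479609-97518143, Lum chr10:97565128-97572703 and Epyc chr10:97644068-97682454, all on the plus strand. Only Lum and Kera, itself an SLRP gene, are protein-coding between Dcn and Epyc, and the gaps along the row are 47.0, 34.2 and 30.4 kb. Ogn spans chr13:49608046-49624501 and closes a second SLRP row after Ecm2, Aspn and Omd, with a gap of 15.2 kb to Omd. Fmod (chr1:134037254-134048277) lies 115.8 kb from Prelp, and Bgn (chrX:73483602-73495933) has no listed SLRP beside it. Epyc overlaps the noncoding gene Gm10754 and Ogn overlaps Cenpp, both on the minus strand, and whether reads were counted by strand is not given in the sources used here.

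The promoter windows of Epyc and Ogn are shown because Epyc was highest in medial KO cells up to P1 and Ogn in interdental cells at E16 and P1. Each RefSeq window (GRCm38.p6) runs from 250 bases before to 50 bases after an annotated start, on the plus strand, and Epyc has a window at each of 2 starts. Of the 6 genes 4 matched a window, and the windows of Bgn and Fmod are not shown. Capitals mark matches on either strand to TATAAA, to AACAAT, the core letters bound by Sox proteins, and to AGATAA, a form of the Gata motif.
Epyc, chr10:97643818-97644117: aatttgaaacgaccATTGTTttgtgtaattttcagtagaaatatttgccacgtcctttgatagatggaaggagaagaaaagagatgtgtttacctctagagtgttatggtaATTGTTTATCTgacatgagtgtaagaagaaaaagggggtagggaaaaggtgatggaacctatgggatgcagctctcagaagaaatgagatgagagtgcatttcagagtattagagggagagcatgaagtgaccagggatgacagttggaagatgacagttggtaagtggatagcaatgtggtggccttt
Epyc, chr10:97646853-97647152: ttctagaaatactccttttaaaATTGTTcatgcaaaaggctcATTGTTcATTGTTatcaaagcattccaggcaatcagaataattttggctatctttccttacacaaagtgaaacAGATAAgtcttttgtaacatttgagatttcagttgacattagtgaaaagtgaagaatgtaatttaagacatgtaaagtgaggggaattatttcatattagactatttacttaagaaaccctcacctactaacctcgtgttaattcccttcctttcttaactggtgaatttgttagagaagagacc
Ogn, chr13:49607765-49608064: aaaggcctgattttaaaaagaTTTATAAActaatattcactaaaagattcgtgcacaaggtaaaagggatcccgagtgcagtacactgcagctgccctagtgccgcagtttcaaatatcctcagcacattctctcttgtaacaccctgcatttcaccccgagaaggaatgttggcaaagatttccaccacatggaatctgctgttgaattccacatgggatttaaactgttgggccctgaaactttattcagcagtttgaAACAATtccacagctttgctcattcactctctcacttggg
The upstream Epyc window held AACAAT 2 times, of which 1 overlaps an AGATAA match on the same strand, and the downstream window held it 3 times. Of 32851 RefSeq windows, 10.72% held AACAAT at all, 1.108% at least 2 times and 0.1218% at least 3 times. AGATAA was found in 11.18% of windows, in both Epyc windows and in the Fmod window. TATAAA, present in 13.62% of windows, was found in the Ogn window as 2 overlapping matches on opposite strands and in neither Epyc window. The windows were 40.33%, 32.33% and 42.33% G and C, where the median of all windows was 52.67%. A match describes these letters only.

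Across the whole floor Epyc rose between E14 and E16, and Dcn and Lum rose between P1 and P7. Epyc encodes epiphycan, an SLRP best known from epiphyseal cartilage. Its level was 542 and 450 CPM in the E14 libraries, 1732, 2250 and 2290 CPM at E16, 3280, 2988, 2800 and 2362 CPM at P1, and 3405 and 2641 CPM at P7. Every E16 library lay above both E14 libraries, and P1 overlapped with P7. The E16 mean was 4.22 times the E14 mean, a log2 difference of 2.05 ± 0.17 (SE, limma, adjusted p = 0.00209). The next step to P1 was 0.45 ± 0.19 (adjusted p = 0.195 by limma), with the P1 libraries all above those of E16 and an unadjusted p of 0.0406, and that from P1 to P7 was 0.08 ± 0.22 (adjusted p = 0.864 by limma). In a mean over all cells, fewer cells of a type and less RNA per cell cannot be told apart. Cells that passed the medial KO gate made up 15.6%, 35.2%, 54.8% and 19% of cells over the 4 ages. These shares depend on the gate. The P7 libraries had 390 and 252 such cells, but 859 and 631 with gates on all UMIs and 94 and 71 with 1 more marker. In the whole floor the medial KO gate genes summed to 3131 to 4368 CPM at P1 and 1547 to 1966 CPM at P7. The part of the gating in the lower P7 share was not tested.

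Dcn encodes decorin, which binds collagen fibrils and TGF-β. Its level was 629 and 568 CPM at E14, 509.7, 646 and 907 CPM at E16 and 613, 760.1, 710.0 and 738 CPM at P1, and the ranges of these 3 ages overlapped. At P7 it was 1257 and 1299 CPM, above every earlier library, and the difference from P1 was 0.85 ± 0.19 (limma, adjusted p = 0.0167). Lum encodes lumican, a keratan sulfate proteoglycan that spaces collagen fibrils in the cornea. Its level was 1244 and 1121 CPM at E14, 973, 1315 and 1602 CPM at E16, 1841, 974, 863 and 2159 CPM at P1, and 3735 and 3077 CPM at P7. Both P7 libraries lay above all others, and Lum rose by 1.32 ± 0.37 from P1 (limma, adjusted p = 0.0441), against 0.10 ± 0.22 and 0.09 ± 0.33 at the 2 earlier steps. These P7 calls rest on 2 libraries: without one or the other P7 library the adjusted p was 0.153 to 0.162 for Dcn and 0.164 to 0.307 for Lum. Leaving out P1 replicate 3 gave 0.058 for Dcn, and leaving out P1 replicate 2 or 3 gave 0.102 or 0.088 for Lum. With no filter on low values the Lum call also ended (adjusted p = 0.059 by limma). Neighbouring steps share the libraries of the age between them.

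Ogn encodes osteoglycin (mimecan), a small keratan sulfate proteoglycan of connective tissues. It peaked at E16: its level was 6.52 and 7.90 CPM at E14, 42.1, 41.7 and 32.3 CPM at E16, 15.9, 10.6, 8.81 and 11.9 CPM at P1, and 0.232 and 3.14 CPM at P7, and no age overlapped another. It rose by 1.50 ± 0.15 to E16 (limma, adjusted p = 0.00371) and fell by 1.16 on the log2 scale, with an SE of 0.18, to P1 (adjusted p = 0.00340). Without E14 replicate 1 the first of these had an adjusted p of 0.060. Ogn lay under 10 CPM at E14 and entered the first test through its E16 level, and with no filter on low values the adjusted p was 0.00557 and 0.00785 (limma). Bgn encodes biglycan, the closest relative of decorin, and stayed at 0.522 to 1.74 CPM up to P1 but reached 12.4 and 28.6 CPM at P7. Fmod encodes fibromodulin, a tendon SLRP that shares collagen binding with lumican, and amounted to 5, 17 and 66 UMIs in all cells at E14, E16 and P1. Both lay under the mean of 10 CPM needed for a test across ages.

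**Figure D1:**
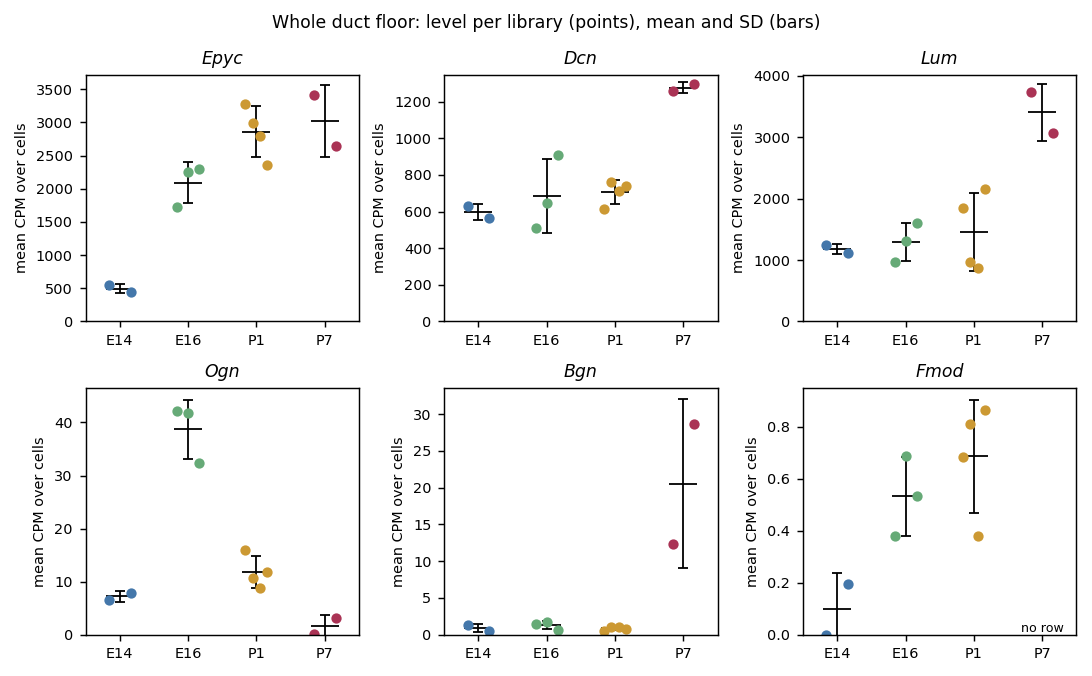
Level of each SLRP gene per library (points) in the whole duct floor at E14, E16, P1 and P7, with the mean and SD of the libraries as bars; the vertical axis is mean CPM over cells and starts at 0. Epyc steps up between E14 and E16, Lum and Dcn stand higher in both P7 libraries, Ogn is highest in the 3 E16 libraries, and Fmod has no row at P7.

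Of the 4 members tested between E14 and E16, 2 were called (Epyc and Ogn), both higher, where 19.4% of all genes were called (5.52% higher). Between E16 and P1 it was 1 of 4, lower, against 7.02% of genes (3.54% lower), and between P1 and P7 2 of 3, both higher, against 15.0% (7.66% higher). The median log2 difference of all genes between E14 and E16 was -0.16 with CPM and 0.02 after median-of-ratios scaling, so that changes at this step may be read relative to that shift. Epyc was 2.27 higher after that scaling.

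Within medial KO cells alone, Epyc, Dcn, Lum and Ogn were called at the same steps as in the whole floor. At P7 medial KO is the name of the gate only, as given above. The steps from P1 to P7 may thus compare cells of unlike makeup, which was not tested. Epyc was at 1688 and 1461 CPM at E14 and at 3675, 4194 and 4462 CPM at E16, a rise of 1.38 ± 0.17 (limma, adjusted p = 0.00112), which is a ratio of means of 2.61 against 4.22 in the whole floor. It then stood at 5113, 4317, 4010 and 3207 CPM at P1 and 4230 and 3912 CPM at P7, and the differences of 0.00 ± 0.21 and -0.01 ± 0.23 lay within the spread of the libraries. Dcn was at 777, 975, 892 and 909 CPM at P1 and 1585 and 1650 CPM at P7, and rose by 0.86 ± 0.20 (limma, adjusted p = 0.0131). Lum was at 2490, 1248, 1116 and 2921 CPM at P1 and 4786 and 4503 CPM at P7, and rose by 1.37 ± 0.38 (adjusted p = 0.0291 by limma). Without one or the other P7 library the adjusted p was 0.120 to 0.138 for Dcn and 0.168 to 0.198 for Lum, and without P1 replicate 2 or 3 it was 0.060 or 0.056 for Lum, as it was 0.075 with no filter on low values. Ogn rose by 1.18 ± 0.29 from E14 to E16 (limma, adjusted p = 0.0267). Without E14 replicate 1 or 2, which leaves 1 library at E14, the rise was 0.94 or 1.41. The call was lost without E16 replicate 1 (0.063) or 2 (0.099). It was also lost with no filter on low values (0.076) and with 1 more marker in every gate (0.93, adjusted p = 0.091 by limma). Ogn fell by 1.46 on the log2 scale, with an SE of 0.23, to P1 (adjusted p = 0.00267 by limma). In that last test Ogn was under 10 CPM at P1 and entered through its E16 level, and with no filter on low values the adjusted p was 0.0217 (limma). The members called were 2 of 4 from E14 to E16 (12.7% of genes), 1 of 4 to P1 (7.30%) and 2 of 3 to P7 (20.5%).

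Mesenchymal and glial RNA moved with age in the same libraries. The summed level of the 10 mesenchymal gate genes in the whole floor was 31.4 to 33.1 CPM at E14, 33.6 to 44.1 CPM at E16, 18.7 to 44.7 CPM at P1 and 374 to 941 CPM at P7, and that of the 8 glial gate genes was 57.2 to 113 CPM up to P1 and 1052 to 3160 CPM at P7. In medial KO cells the mesenchymal sum was 9.03 to 34.1 CPM at P1 and 76.6 to 118 CPM at P7, with Twist2 and Pdgfra at 0 in both P7 libraries. With cells of the mesenchymal and glial gates left out, Dcn was 0.86 (adjusted p = 0.0145) and Lum 1.44 (adjusted p = 0.0275) higher at P7 than at P1 by limma. Ungated cells, which stayed in, had a mesenchymal sum of 6.92 to 26.2 CPM at P1 and 315 to 598 CPM at P7, and the part of mesenchymal and glial RNA in both rises was not tested further.

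Among the gated groups, Epyc was highest in medial KO cells up to P1. No gate was set for the lateral part of KO, so a difference within KO was not tested. From E14 to P1 its order was medial KO, interdental, then ungated cells, with ranges that did not overlap at any of these ages. At P1 medial KO cells had 4162 ± 788 CPM (SD, n = 4), interdental cells 2601 ± 181 CPM, ungated cells 1359 ± 483 CPM, Oc90 cells 354 ± 296 CPM, lateral floor cells 332 ± 244 CPM, SCs 69.3 ± 59.9 CPM and HCs 65.5 ± 51.8 CPM, and from Oc90 cells downward each neighbour overlapped with the next. Against all other cells of the same library, medial KO cells were higher by 2.49 ± 0.06 at E14, 2.09 ± 0.05 at E16 and 2.09 ± 0.18 at P1, in all 9 libraries. Lateral floor cells were lower by as much or more, with differences of -3.27 ± 0.12, -2.36 ± 0.14 and -3.33 ± 0.25. Interdental cells differed from the other cells by 0.84 ± 0.09 at E14 and by -0.37 ± 0.07 at E16, and both passed, the latter not without the filter on low values (adjusted p = 0.094 by limma). At P1 the difference was -0.13 ± 0.09 (limma, adjusted p = 0.308, lower in 2 of 4 libraries), but -0.66 (adjusted p = 0.00193) with gates on all UMIs and -0.27 (adjusted p = 0.0266) with 1 more marker in every gate. Medial KO cells are among the other cells here.

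HCs, which are not known as a source of these matrix genes, were set beside SCs as a reference. Free RNA in the suspension was not measured. Epyc had 0 UMIs in 57 HCs at E14, which allows a share of up to 5.26% of cells with a UMI. At P1, with each cell drawn down to 1500 UMIs, 2.58% to 14.9% of HCs had an Epyc UMI, and SCs had 1.77% to 13.7%. Without drawing down, the shares were 17.4% to 62.1% of HCs and 8.85% to 55.2% of SCs, at median depths of 5320 to 9393 and 4448 to 7462 UMIs. At P1 the Epyc share of SCs was at that of HCs, and the part of free RNA in either was not tested. In CPM, SCs had 0.426 to 0.879 of the HC level at E16 and 0.565 to 1.26 at P1, but 2.37 and 4.78 times at P7 and at least 4.96 times in E14 replicate 1, from 7 UMIs. In the same libraries 76.2% to 77.6% of medial KO cells had an Epyc UMI after drawing down. For Dcn the SC share (7.88% to 15.0%) lay above the HC share (0.926% to 4.10%), and for Lum it was 12.4% to 27.8% against 0.926% to 7.69%.

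In the lateral floor, Dcn and Lum stood nearer to their medial KO level than Epyc did up to P1. At P7 the ratio of lateral floor to medial KO cells was 0.0861 to 0.395 for Dcn but 1.15 to 1.32 for Epyc. At E14 Dcn was highest in medial KO cells (1226 and 1150 CPM) and lower in interdental (686 and 525 CPM), lateral floor (198 and 183 CPM) and hair cells (105 and 54.5 CPM). At P1 the range in medial KO cells (777 to 975 CPM) overlapped with that of ungated cells (694 to 917 CPM), and interdental cells followed at 318 to 511 CPM and lateral floor cells at 254 to 508 CPM. Against all other cells Dcn in medial KO cells was 1.29 ± 0.05 higher at E14, 1.34 ± 0.05 at E16 and 0.92 ± 0.07 at P1.

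Up to P1, Lum in the lateral floor stood nearer to its medial KO level than Epyc did, whose ratio there was 0.0236 to 0.213 by library. At E14 lateral floor cells had 1809 and 1726 CPM and medial KO cells 1741 and 1710 CPM, with overlapping ranges, and lateral floor cells held 12.3% of all Lum UMIs. Within a library the ratio of lateral floor to medial KO cells was 1.01 to 1.04 at E14, 0.614 to 1.10 at E16, 0.647 to 1.02 at P1, whereas it was 0.848 to 1.24 at P7. Interdental cells had 0.293 to 0.573 of the medial KO level from E14 to P1. Against all other cells Lum was higher in the lateral floor at E14 (0.62 ± 0.06), whereas at E16 (0.20 ± 0.11, adjusted p = 0.373), P1 (0.07 ± 0.10, adjusted p = 0.727) and P7 (0.47 ± 0.15, adjusted p = 0.0642) the limma test did not pass. Without E16 replicate 1 the E16 difference was 0.30 (adjusted p = 0.024), and the P7 difference passed with median-of-ratios scaling (0.47, adjusted p = 0.0309) and with no filter on low values (adjusted p = 0.0032, all by limma). With 1 more marker in every gate the direction turned, to -0.14 at E16 and -0.49 at P1.

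Over the 6 gates tested at each age, Epyc, Dcn and Lum were called against all other cells in 17 of 18 tests at E14, where 7.64% of all genes were called in HCs, 0.947% in SCs, 15.8% in the lateral floor, 7.13% in interdental, 12.7% in medial KO and 20.8% in Oc90 cells. At E16 it was 17 of 18, against 39.4%, 8.76%, 5.85%, 8.29%, 15.0% and 5.06% of genes in the same order of gates. At P1 it was 16 of 18, against 69.3%, 37.3%, 16.5%, 28.7%, 40.9% and 7.04%. At P7 it was 17 of 18, against 64.1% in HCs, 29.7% in SCs, 2.18% in the lateral floor, 15.7% in medial KO cells, 31.0% in glia and 26.3% in mesenchyme. Most of these calls were lower. Medial KO cells are among the other cells for every gate but their own, so the tests of a gene are not independent. At E14 and P7 these tests have 1 residual degree of freedom, and their errors lean on the spread shared across genes. With a pseudocount of 1 CPM the 3 SC calls at E14, from 33 cells, ended, as did the calls of Epyc and Dcn in the 27 lateral floor cells of P7.

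**Figure D2:**
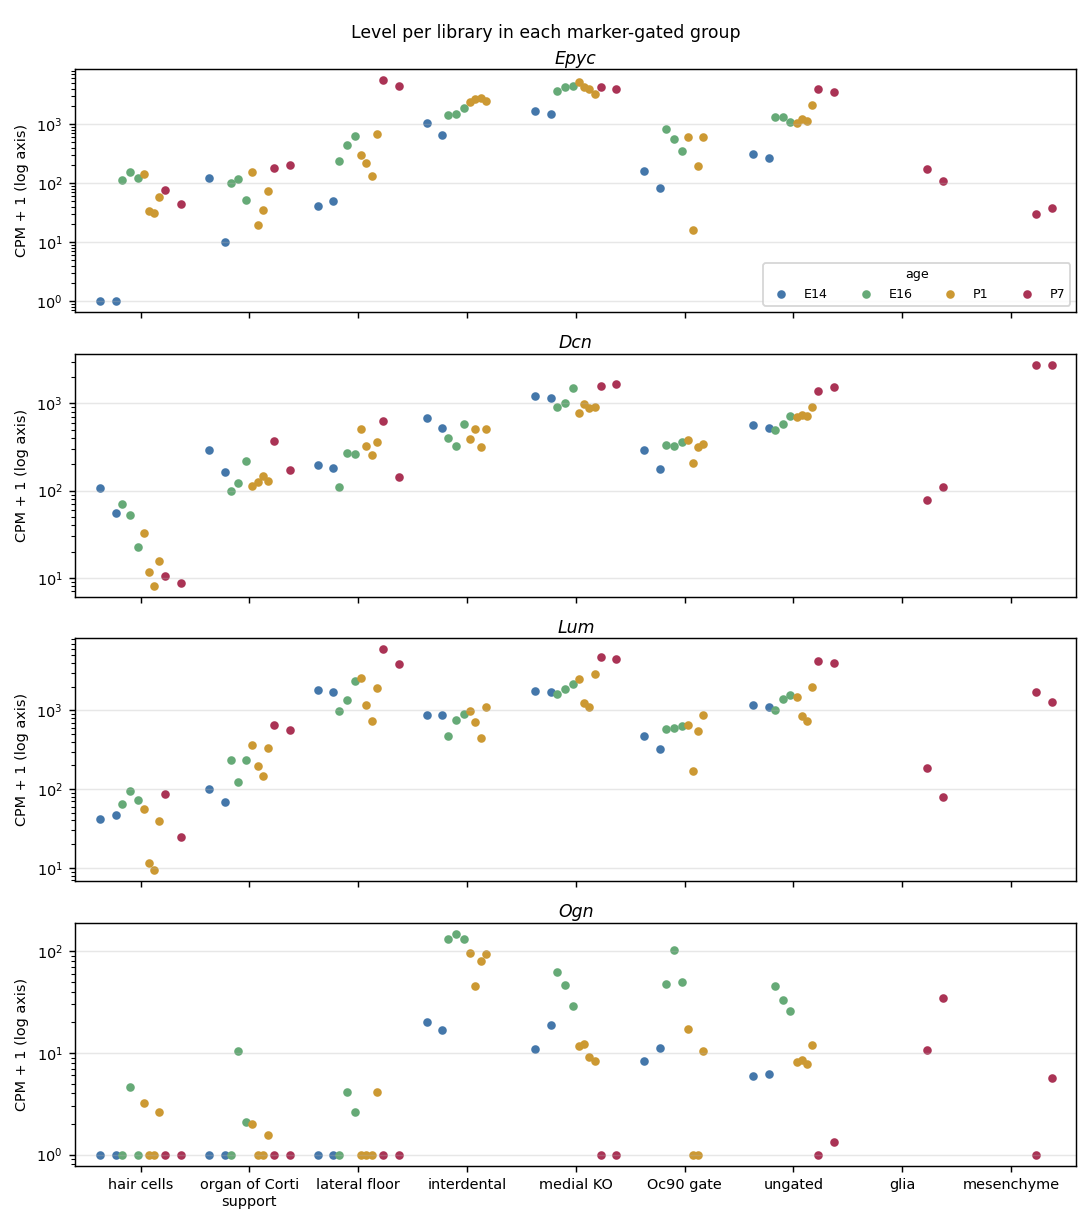
Level of Epyc, Dcn, Lum and Ogn per library (points, coloured by age) in each gated group; the vertical axis is CPM + 1 on a log scale. Epyc is highest in medial KO and interdental cells up to P1 and reaches the same height in P7 lateral floor cells, Lum in the lateral floor is close to medial KO at E14 and lies below it in 5 of 7 libraries of E16 and P1, and Ogn is highest in interdental cells at E16 and P1.

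Epyc, Dcn and Lum differed at every age between medial KO cells and the SCs of the organ of Corti. In Epyc, medial KO cells exceeded SCs by 4.99 ± 0.32, 5.45 ± 0.18, 6.01 ± 0.28 and 4.33 ± 0.14 over the 4 ages. SC values behind these were 120 and 9.06 CPM at E14 (7 UMIs and 1 UMI), 98.8, 114 and 51.4 CPM at E16, 153, 18.6, 33.9 and 71.9 CPM at P1, and 179 and 206 CPM at P7. The Epyc ratio of medial KO cells to SCs was 14.0 and 161 in the 2 E14 libraries. At E14 and P7 the tests between these groups have 1 residual degree of freedom. Their SEs lean on the spread shared across genes and not on that of each gene. Dcn differed by 2.39 ± 0.25, 2.92 ± 0.12, 2.71 ± 0.08 and 2.63 ± 0.15 at the 4 ages, and within each P1 library medial KO cells had 6.07 to 7.89 times the SC level. Lum differed by 4.24 ± 0.28, 3.23 ± 0.16, 2.83 ± 0.08 and 2.92 ± 0.14, and the P1 ratios were 6.43 to 8.93. For Epyc the P1 ratios ranged from 33.5 to 232 because the SC level differed between libraries. The SC level of Epyc at E16 and P1 was near that of HCs, and how much of it is free RNA was not tested. Ogn at E16 averaged 44.9 CPM in medial KO cells and 3.48 CPM in SCs, and entered the test through the former alone. With no filter on low values it was 2.04 ± 0.39 higher in medial KO cells (limma, adjusted p = 0.0397).

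Epyc, Dcn and Lum were called higher in medial KO cells at all 4 ages, where 3.23%, 12.2%, 40.0% and 32.3% of all genes were called (1.60%, 5.33%, 15.8% and 14.4% higher). The direction held in every library. Between P1 and P7 the Epyc difference fell by 1.67 on the log2 scale (SE 0.53, limma, adjusted p = 0.0461, a comparison added after the data were seen, in which 23.8% of genes changed), and the P7 SC level lay above all SC libraries of P1. The P7 SC and medial KO gates had weaker check genes, as given above, and their part in this change was not tested.

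**Figure D3:**
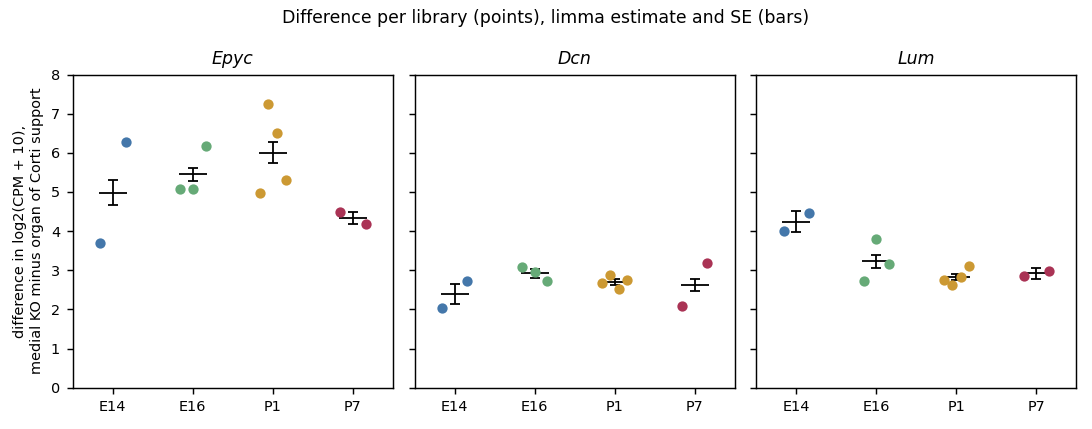
Difference between medial KO cells and SCs of the same library in log2(CPM + 10), for Epyc, Dcn and Lum at 4 ages; points are libraries and bars the limma estimate and its SE. All points are above 0, with Epyc between 3 and 8 and Dcn and Lum between 2 and 5.

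Several partners of the SLRPs in the matrix were also higher in medial KO cells. A listed gene could enter a test through the group where it is high, so the counts are descriptions. Of 24 genes of fibril collagens and their crosslinking, 15 were tested between medial KO cells and SCs at P1, and 10 were higher and 2 lower, where 40.0% of all genes were called. Their median log2 difference was 1.08, where that of all genes was -0.06. Col9a1 (2.06 ± 0.07) and Col9a3 (1.91 ± 0.07), chains of the collagen IX of the tectorial membrane, led them, with Loxl1, a collagen crosslinking enzyme (1.83 ± 0.12), and Col12a1 (1.74 ± 0.25). At E16 it was 6 of 12 higher (5.33% of all genes), with Col11a1 (2.68 ± 0.20), Col9a3 (1.90 ± 0.12), Col2a1 (1.73 ± 0.08) and Col9a1 (1.62 ± 0.11). Of the 12 other SLRP genes listed, Podn (2.39 ± 0.14) and Chadl (1.29 ± 0.07) were tested at P1 and both were higher in medial KO cells.

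Enzymes build the sugar chains of the SLRPs. Of 22 chondroitin and dermatan sulfate genes, 14 were tested at P1, and 2 were higher and 4 lower in medial KO cells, a share near the 40.0% of all genes called, so that nothing is read from it. Chst15, a chondroitin sulfotransferase, was 1.95 ± 0.17 higher, Dsel 0.66 ± 0.13 higher, and Ust (-0.79 ± 0.15) and Chpf (-0.64 ± 0.14) were lower. Of 11 keratan sulfate genes 4 were tested, and B4galt4 (1.21 ± 0.10), B3gnt7 (1.04 ± 0.15) and Chst2 (0.65 ± 0.15) were higher whereas Chst1 (-1.56 ± 0.19) was lower. Of 6 tectorial membrane genes 4 were tested, and Tecta (1.47 ± 0.07), which encodes α-tectorin, was higher whereas Tectb (-1.90 ± 0.16), Otog (-1.15 ± 0.10) and Otogl (-0.79 ± 0.14) were lower.

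The same lists were followed by age in the whole floor. From E14 to E16, 4 of 13 collagen genes rose (Col11a1 by 1.18 ± 0.20, Col11a2 by 1.10 ± 0.14, Loxl1 by 0.75 ± 0.16 and Col2a1 by 0.62 ± 0.12), where 19.4% of all genes were called. From E16 to P1, when Epyc, Dcn and Lum did not pass, 7 of 14 collagen genes rose (7.02% of all genes were called), led by Col9a1 (1.80 ± 0.23) and Col9a3 (1.42 ± 0.24), as did Podn (2.75 ± 0.20), Chadl (1.90 ± 0.26), B3gnt7 (1.78 ± 0.26), Chst2 (1.18 ± 0.19), Tectb (1.84 ± 0.37) and Tecta (1.03 ± 0.19). From P1 to P7, when Dcn and Lum rose, Podn fell by 2.15 and Chadl by 1.19 on the log2 scale. At that step Chst15 fell by 3.03 and Chsy1 by 1.28, the keratan sulfate sulfotransferase Chst1 rose by 2.91 ± 0.23, and B3gnt7 fell by 1.83. Of 18 collagen genes 4 rose and 3 fell, against 15.0% of all genes called, and those that rose, Col3a1 (4.71 ± 0.36), Col1a2 (3.87 ± 0.34), Pcolce (2.31 ± 0.16) and Lox (2.11 ± 0.16), include 2 genes of the mesenchymal gate.

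Lum, alone of the 3 main members, split the P1 libraries the same way in every group. In medial KO cells replicates 1 and 4 had 2490 and 2921 CPM and replicates 2 and 3 had 1248 and 1116 CPM. In lateral floor cells the values were 2535 and 1942 CPM against 1157 and 722 CPM, and in ungated cells 1462 and 1973 CPM against 842 and 732 CPM. Replicates 1 and 4 lay above 2 and 3 in 7 of 7 groups for Lum, in 4 of 7 for Epyc and in 3 of 7 for Dcn. The pair was seen in the values, so no test is given. Median UMIs per cell were 5647.5 and 3831.5 in replicates 1 and 4 and 5227 and 5643 in replicates 2 and 3. Whether the pools, their handling or their sequencing differ was not tested.

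**Figure D4:**
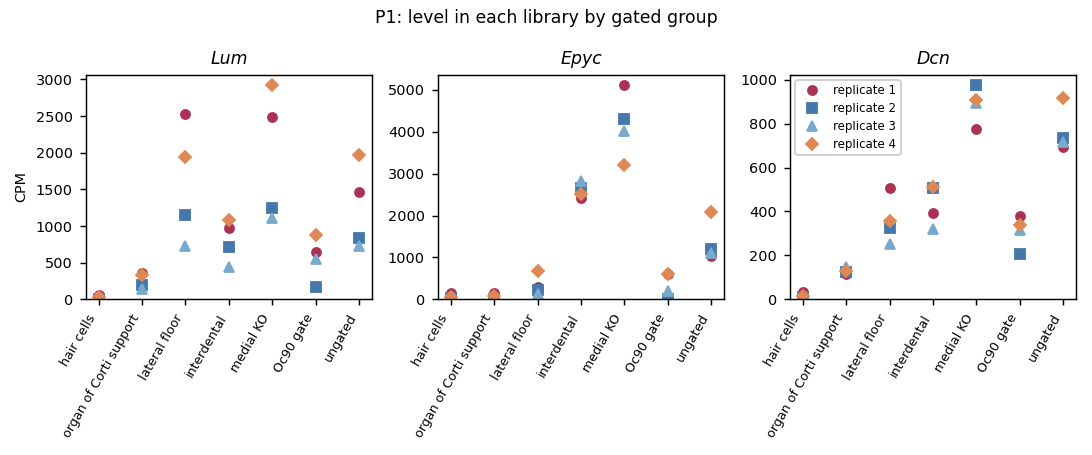
Level of Lum, Epyc and Dcn in CPM (vertical axes from 0) in each gated group of the 4 P1 libraries, with a symbol per library. For Lum the circles and diamonds (replicates 1 and 4) lie above the squares and triangles (2 and 3) in all 7 groups, while for Epyc and Dcn the symbols change places between groups.

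Ogn was highest in interdental cells at E16 and P1. Interdental cells, which anchor the tectorial membrane at the spiral limbus, had 18.9 and 15.8 CPM at E14, 130, 147 and 130 CPM at E16, and 94.9, 44.9, 80.0 and 93.9 CPM at P1. Medial KO cells had 9.92 and 17.6, then 61.5, 45.5 and 27.8, then 10.8, 11.2, 8.11 and 7.39 CPM, so the 2 groups did not overlap at E16 or P1. Against all other cells the interdental difference was 0.74 ± 0.32 at E14 (limma, adjusted p = 0.171), 1.78 ± 0.20 at E16 and 2.27 ± 0.18 at P1. At P1 every other gate averaged under 10 CPM, and with no filter on low values the adjusted p was 0.0042 at E16 and 0.0024 at P1 (limma). Oc90 cells came next at E16 with 47.0 to 101 CPM, a range that overlapped with medial KO cells. Their difference from other cells was 0.61 ± 0.29 (limma, adjusted p = 0.336), but it passed with gates on all UMIs (1.05, adjusted p = 0.024), with 1 more marker in every gate (1.99, adjusted p = 0.018) and without E16 replicate 1 (0.87, adjusted p = 0.009). Medial KO cells differed from all other cells by 0.21 ± 0.16 at E16 and -0.22 ± 0.13 at P1 (limma, adjusted p = 0.449 and 0.205). HCs, SCs and lateral floor cells had 0 to 9.34 CPM of Ogn at any age. At P1 interdental cells, 628 of 14043, held 35.2% of all Ogn UMIs. At P7 medial KO cells had 0 Ogn UMIs in 642 cells, which allows a share of up to 0.467%, and the interdental gate was left with 6 cells. Of the 18 Ogn UMIs at P7, 13 lay in glial cells (9.80 CPM from 1 UMI and 33.5 CPM from 12 UMIs).

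Fmod was highest in lateral floor cells at P1. At P1 these had 13.2, 27.0, 15.6 and 38.3 CPM from 12, 6, 5 and 18 UMIs, which is 62.1% of the Fmod UMIs of that age in 250 of 14043 cells. Oc90 cells had 0 to 13.9 CPM, a range that overlapped with theirs. Medial KO cells had 0 UMIs in 7697 cells, which allows a share of up to 0.0390%, so that lateral floor cells were at least 43.5-fold to 146-fold higher by library, taking 3 UMIs per library as the floor. Fmod entered the test against all other cells through the lateral floor alone, which fixed its direction there. With no filter on low values the difference was 1.64 ± 0.27 (limma, adjusted p = 0.0295, higher in 4 of 4 libraries). At E16 lateral floor cells had 10.6, 13.7 and 3.18 CPM from 2, 3 and 3 UMIs, 8 of the 17 of that age, and at E14 they had 0 UMIs in 304 cells, which allows up to 0.987%.

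At P7 the connective tissue cells themselves could be set beside the epithelium. Mesenchymal cells had 2772 and 2781 CPM of Dcn, medial KO cells 1585 and 1650 CPM, so that Dcn was 0.78 ± 0.11 higher in mesenchyme. Tests between mesenchyme and medial KO cells have 1 residual degree of freedom, and their errors lean on the spread shared across genes. Bgn was at 196 and 207 CPM in mesenchymal cells (105 UMIs), at 49.8 and 33.1 CPM in glia (19 UMIs; mesenchymal gate genes there summed to 1406 to 1570 CPM, against 5918 to 7184 CPM in mesenchyme) and at 0.271 and 0.600 CPM in medial KO cells (1 UMI in each library), a difference of 4.34 ± 0.40 between mesenchyme and medial KO on the log2(CPM + 10) scale with no filter on low values (limma, adjusted p = 3.9e-25). With the filter, Bgn entered that test through mesenchyme alone. HCs and SCs had 0 Bgn UMIs in 226 and 169 cells, which allows up to 1.33% and 1.78%. Mesenchymal cells held 39.6% of all Bgn UMIs at P7 and ungated cells, in which the mesenchymal gate genes summed to 315 to 598 CPM, held 45.3%.

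Lum and Epyc ran the other way. Lum was at 1706 and 1259 CPM in mesenchyme and 4786 and 4503 CPM in medial KO cells, and Epyc at 28.8 and 36.5 CPM and 4230 and 3912 CPM, with differences of -1.66 ± 0.10 and -6.58 ± 0.20. The Epyc level of mesenchyme lay below that of HCs (75.9 and 43.0 CPM). Of Epyc, Dcn and Lum, 1 was higher and 2 were lower in mesenchyme, where 28.6% of all genes were called (14.9% higher and 13.7% lower). Of the other SLRP genes Omd (3.31 ± 0.45), Chad (2.71 ± 0.45) and Prelp (1.49 ± 0.54) were higher and Chadl (-3.44 ± 0.28) was lower. Of 21 collagen genes tested 16 were higher in mesenchyme and 0 lower. At the top were Col3a1 (7.62 ± 0.25) and Col1a2 (4.84 ± 0.19), which are gate genes, Pcolce (4.38 ± 0.32) and Col5a2 (4.31 ± 0.40). Gate genes are thus in the count, and collagen and other SLRP genes could enter this test through the group where they are high. These counts are descriptions.

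**Figure D5:**
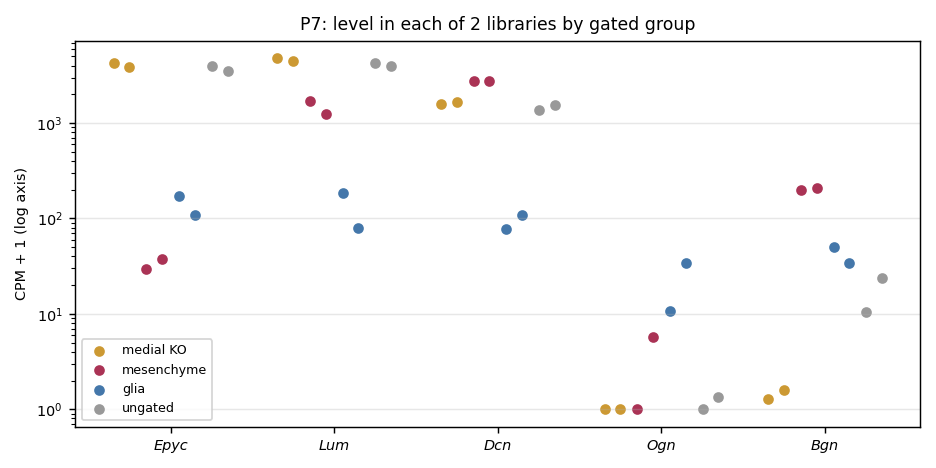
Level of 5 SLRP genes at P7 in the 2 libraries, by gated group, as CPM + 1 on a log axis. Mesenchymal cells are highest in Dcn and Bgn, whereas of the 4 groups plotted medial KO and ungated cells are highest in Epyc and Lum, and glia in Ogn. Lateral floor cells are not plotted.

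The contrast of Epyc between medial KO cells and lateral floor or ungated cells flattened by P7. Other contrasts stayed large at that age. Medial KO cells exceeded SCs by 4.33. Against all other cells Epyc differed by -5.61 in HCs, -4.45 in glia and -6.23 in mesenchyme. Lateral floor cells, 27 in all, had 5580 and 4518 CPM at P7 after 299, 215, 131 and 683 CPM at P1, and ungated cells had 4001 and 3542 CPM after 1038, 1208, 1112 and 2076 CPM. Against all other cells the P7 lateral floor was 0.72 ± 0.15 higher (limma, adjusted p = 1.46e-04). That call ended with a pseudocount of 1 (0.72, adjusted p = 0.389) or without cells of more than 3000 genes (0.74, adjusted p = 0.218), and with gates on all UMIs the value was 0.05. The change in this difference from P1 to P7 was 4.06 ± 0.63 (adjusted p = 0.0253 by limma), where 3.17% of genes had such a change. In those 27 cells the lateral floor gate genes summed to 5062 to 6098 CPM and the medial KO gate genes to 1055 to 1203 CPM, against 2387 to 2663 CPM in medial KO cells. In lateral floor cells of P1 the medial KO gate genes summed to 200 to 401 CPM. The mesenchymal gate genes there went from 0 to 42.5 CPM at P1 to 252 to 336 CPM at P7, whereas the HC and glial sums were lower at P7. The part of these shifts in the Epyc change was not tested.

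Medial KO cells stood out less from the rest at P7 for all 3 main members. The difference from other cells fell between P1 and P7 from 2.09 to 0.53 for Epyc, from 0.92 to 0.40 for Dcn and from 1.22 to 0.55 for Lum, changes of -1.56 ± 0.31, -0.52 ± 0.13 and -0.67 ± 0.11 (limma, adjusted p = 0.0113, 0.0303 and 0.00578) where 17.6% of all genes changed. Ungated cells, 57.4% of P7 cells, held 71.4% of Epyc and 69.3% of Lum UMIs at that age. At P1 they were 19.1% of cells and held 10.1% and 17.2%, so the share of cells rose too. With gates on all UMIs, 368 and 276 cells of the P7 libraries were ungated, against 1059 and 879. Medial KO cells there numbered 859 and 631, against 390 and 252. In the P1 libraries 64, 40, 35 and 154 cells were then ungated, against 648, 411, 456 and 1170. Weaker check genes for the medial KO gate at P7, given above, move with the smaller differences, and the part of the gating in them was not tested.

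Single medial KO cells could carry several members. After drawing down to 1500 UMIs, 44.0% and 40.6% of medial KO cells at E14 had exactly 3 of the members, 37.1% to 56.9% at E16, 29.6% to 34.8% at P1, and 47.9% and 59.1% at P7. Over all cells, medial KO cells included, the share was 13.7% and 16.2% at E14, 18.4% to 30.7% at E16, 21.1% to 25.6% at P1, and 34.5% and 37.2% at P7. Free RNA can add to these shares, and its part was not tested.

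Genes with the most similar pattern were sought over the levels of 6 gates in each library (24 profiles at P1, 18 at E16) by Pearson's r of log2(CPM + 10), among 9083 and 9167 genes. Profiles of a library share its cells and handling, and r is given as a description. For Epyc the closest at P1 were Zfp521 (0.92), Itm2a (0.92) and Tnfaip8 (0.90), and at E16 Ldb2 (0.94), Mmp2 (0.91) and Muc15 (0.91). For Dcn they were Col9a3 (0.97), Rcn3 (0.96) and Lum (0.95) at P1, and Muc15 (0.92), Col9a3 (0.92) and Col9a2 (0.92) at E16. For Lum they were Tpbg (0.96), Dcn (0.95) and Sdc2 (0.94) at P1, and Cdo1 (0.97), Col18a1 (0.95) and Rxrg (0.91) at E16. For Ogn they were Rspo3, Car9 and Fgfbp1 (0.95, 0.95 and 0.94) at P1, and Tmem132c, Mt3 and Adamts9 (0.96, 0.95 and 0.94) at E16. Muc15 and Car9 are genes of the medial KO and interdental gates. Bgn and Fmod lay under 10 CPM and were not searched.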

How the data were processed

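The authors counted UMIs of the 11 droplet libraries used here with Cell Ranger 2.1.1 on mm10, and Seurat 2.0 is named in their processing notes. The deposited values are natural log values, ln(1 + 10000 × share of a cell's UMIs), in 1 table per age. They were transformed back, and UMIs came out whole, within 2%, for all values.

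Each cell was drawn down to 1500 UMIs (seeded) and gated when at least 3 gate genes (2 for the lateral floor and Oc90 gates) had a UMI. Cells of 2 or more gates were set apart and no doublet caller was run. Groups under 5 cells in a library were left out. Mean CPM per library and group was tested with limma 3.58.1 (R 4.3.3) on log2(CPM + 10), leaving out genes that averaged under 10 CPM, and groups of the same library were compared with library as a block. As the files hold log values, no count model was fitted. Age comparisons used 1 fit per pair of ages, since each age has its own table. Changes in a difference between ages were compared per library and were added after the data were seen. The limma steps were tested on simulated data.

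Limits for 0 UMIs take 3 counts. They cover counting error only. The 6 members, the gene lists and the tests were chosen with earlier results of these data known. Beside the members, genes are named as at most the 4 called genes with the highest absolute difference of a list, and the 3 genes most like a member. Alternatives were the pseudocount (1), no filter, pooled UMIs, median-of-ratios scaling, other gates, cells of at most 3000 genes, no mesenchymal or glial cells, a replicate block, 1 fit over all libraries, and each library left out.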

Additional observations from a re-analysis of the deposited data

Results flagged for a closer look

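Epyc in ungated P1 cells was 2076 CPM in replicate 4, against 1038 to 1208 CPM in the other 3 libraries. The gap to its neighbour was 0.836 of the group's range, above Dixon's 95% critical value of 0.829 for 4 samples, in 1 of 32 groups looked at, and chance flags about 1 in 20.

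Differences between groups of cells that themselves changed with age, tested per library with limma, were found at the step from P1 to P7 and in 5 of 41 such tests of members. At that step 23.8% of all genes changed in the medial KO difference from SCs, 3.17% in the lateral floor difference from other cells and 17.6% in the medial KO difference from other cells, against 0.00% to 3.26% at the earlier steps. The medial KO difference from SCs in Epyc changed by -1.67 ± 0.53 (6.01 at P1, 4.33 at P7, adjusted p = 0.0461). The lateral floor difference from other cells in Epyc changed by 4.06 ± 0.63 (-3.33 at P1, 0.72 at P7, adjusted p = 0.0253), with 27 lateral floor cells at P7. The medial KO difference from other cells changed by -0.52 ± 0.13 in Dcn (adjusted p = 0.0303), by -0.67 ± 0.11 in Lum (adjusted p = 0.00578) and by -1.56 ± 0.31 in Epyc (adjusted p = 0.0113).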

How the results depend on the processing

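Of 1218 values of member results under an alternative, 1132 kept their direction and their side of the threshold, 37 lost and 9 gained a call, and 40 changed sign, none of them a called result. The number of members called from E14 to E16 in medial KO cells was 1 without a filter or with 1 more marker, against 2. With each library left out, the members called were 1 to 2 from E14 to E16 and 0 to 2 from P1 to P7, both in the whole floor and in medial KO cells.

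Differences near 0 that changed sign were these (log2). Epyc in medial KO cells from E16 to P1 was -0.054 with median-of-ratios scaling, -0.077 with gates on all UMIs and -0.018 with 1 more marker, and from P1 to P7 it was 0.021 with pooled UMIs, 0.015 with median-of-ratios scaling, 0.013 without cells over 3000 genes and 0.26 with gates on all UMIs. Dcn from E14 to E16 in medial KO cells was 0.15 with median-of-ratios scaling and 0.021 with gates on all UMIs, and in interdental cells at E14 it was -0.027 without cells over 3000 genes, -0.058 with gates on all UMIs and -0.32 with 1 more marker. Lum was 0.13 from E16 to P1 in medial KO cells with pooled UMIs. In the lateral floor Lum was -0.14 at E16 with 1 more marker, and at P1 it was -0.0066 without cells over 3000 genes and -0.49 with 1 more marker.

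The replicate numbers gave correlations of -0.28 to 0.06 between same-numbered libraries of neighbouring ages. Each age was centred on its own few libraries, so these values depend on each other. They cannot decide whether same-numbered libraries share more than a number. With the replicate block, in which libraries without a partner do not count, the same number of members was called (2 and 1 in the whole floor, 2 and 1 in medial KO cells). Dcn from E14 to E16 was then -0.058 and Lum -0.061 in the whole floor, Lum was -0.0057 in medial KO cells, and Lum from E16 to P1 was -0.13 in the whole floor. No paired analysis was possible from P1 to P7 because those ages share 1 number.

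With 1 library left out, the ranges of differences that crossed 0 were -0.10 to 0.26 for Epyc from P1 to P7 in the whole floor, -0.10 to 0.12 and -0.13 to 0.092 for Epyc in medial KO cells at the last 2 steps, -0.058 to 0.35 and -0.12 to 0.29 for Dcn in the whole floor at the first 2 steps, -0.31 to 0.042 for Dcn from E14 to E16 in medial KO cells, -0.061 to 0.30 and -0.13 to 0.30 for Lum in the whole floor at the first 2 steps, -0.0057 to 0.20 and -0.29 to 0.17 for Lum in medial KO cells at those steps, and -0.065 to 0.18 for Lum in the P1 lateral floor. Lum from P1 to P7 lost its call without a filter (adjusted p = 0.059 in the whole floor and 0.075 in medial KO cells, by limma). With a pseudocount of 1 the SC calls at E14 ended for Epyc, Dcn and Lum (adjusted p = 0.667, 0.523 and 0.10 by limma, 33 cells), as did Dcn in the P7 lateral floor (0.470, and 0.162 with pooled UMIs). Over all genes, 75 to 4376 were called from E14 to E16 with 1 library left out (main 1746) and 401 to 2120 from P1 to P7 (main 1313), and 28.5% of the calls from E14 to E16 were higher with CPM but 69.9% with median-of-ratios scaling. Within-age tests at E14 and P7 could not be run without a library, as the 1 library left has no residual degree of freedom. The gates with 1 more marker left too few SCs at E14. The causes were not tested.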
